A study of Mus musculus with 8 samples.

Results

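Cholesterol and fatty acid synthesis genes are the enzymes that turn acetyl-CoA into sterols and long-chain fatty acids, the factors that switch these enzymes on, and 1 protein that carries sterols between membranes. The list held 31 genes, chosen by pathway and matched by symbol to RefSeq transcripts, and 28 of them had a row of values, out of 15649 named genes on 22523 tested rows. Idi1, Fdps and Insig1 matched no row and were not analysed here. The 28 genes had 29 rows, because Scap had 2 rows with identical values, which were counted once.

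The arrays compared 3 lines of p53-null mouse fetal fibroblasts, all cultured for 48 h with 65 µM ZnCl2 in medium that held 10% dialyzed serum and 5 µg/ml puromycin. Zinc turns on a p53 cDNA behind a modified human metallothionein promoter in Ind-8 cells (ASYM, 3 arrays), which then divide asymmetrically. Con-3 cells (SYM, 3 arrays) lack p53 and divide symmetrically. The study's methods name Con-3 as a line with the empty vector, whereas the labels give it as the congenic line from which Ind-8 came. tI-3 cells (p53SYM, 2 arrays) derive from Ind-8, express p53 in zinc and also carry an IMPDH II transgene that is always on, so that they divide symmetrically with p53 present. The p53SYM medium also held G418. Each line is 1 clone. Restored p53, division pattern and clone cannot be told apart between ASYM and SYM. Division pattern, clone, transgene and G418 cannot be told apart between ASYM and p53SYM. Between p53SYM and SYM, which both divide symmetrically, restored p53, clone, transgene and G418 cannot be told apart. The arrays of a line are independent preparations of that clone, and a p-value measures the spread between these preparations. Setting ASYM against SYM asks what goes with restored p53 and the division pattern together, and setting ASYM against p53SYM asks what goes with the division pattern when p53 is present in both.

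Sterol synthesis runs from acetyl-CoA through mevalonate and farnesyl diphosphate to squalene, lanosterol and cholesterol, and fatty acid synthesis branches from the same acetyl-CoA. Both are driven by the SREBP transcription factors, which are made as membrane proteins, escorted by Scap to the Golgi when sterols are low, and released there by the site-1 and site-2 proteases. INSIG proteins hold Scap back when sterols are high, and the released SREBP binds promoters beside the factors NF-Y and Sp1.

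Values are RMA log2 intensities, on which a difference of 1 is a 2-fold difference. A row was called when limma gave an adjusted p under 0.05 over all 22523 rows. The label checks came first. Cdkn1a, the p53 target that encodes p21, read 9.70, 9.70 and 9.59 on the ASYM arrays, 5.73, 5.81 and 6.03 on the SYM arrays, and 7.55 and 7.33 on the p53SYM arrays. All 5 arrays of the p53-restored lines therefore lay above all SYM arrays, and the p53SYM arrays lay between the other groups. Trp53 itself was dim, with a mean of 5.79 ± 0.09 (SD, n = 3) in ASYM, 5.25 ± 0.04 (SD, n = 3) in SYM and 5.64 ± 0.07 (SD, n = 2) in p53SYM. Impdh2, the gene of IMPDH II, read 12.34 and 12.38 in p53SYM, 12.16, 12.19 and 12.22 in ASYM, and 12.51, 12.56 and 12.53 in SYM. The p53SYM arrays lay above those of ASYM, the line p53SYM derives from, and below those of SYM, and neither difference passed the threshold (adjusted p = 0.16 and 0.18). The study describes IMPDH II expression in p53SYM as also raised relative to SYM, which these array values did not show. ASYM was called lower than SYM (log2 difference −0.34, adjusted p = 0.011). Whether the Trp53 and Impdh2 probes lie within the introduced cDNAs is not given in the sources used here. The zinc-inducible metallothionein genes Mt1 and Mt2 read from 12.94 to 13.95 on all arrays, and only Mt2 between p53SYM and SYM was called (log2 difference −0.39). That call was lost in 5 alternatives, among them leaving out SYM array 2 or quantile-normalizing the arrays again.

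The fibroblast label was checked against 8 markers, and 7 had a mean above the 25th percentile of all rows (4.30). Vim, the brightest of them, had a mean of 13.89, and Thy1 was dim on all arrays. The summed log2 value of the 8 markers ran from 79.8 to 82.3 in ASYM, from 78.3 to 80.4 in SYM, and was 75.6 and 75.5 in p53SYM. Col3a1, a fibrillar collagen, read 6.26 and 6.51 in p53SYM against 7.91 to 9.37 on the other arrays, and Pdgfra read 6.36 and 5.69 against 7.04 to 7.81. With Col1a1, these were the 3 markers called lower in p53SYM than in SYM, and the Col1a1 call was lost without p53SYM array 1 (adjusted p = 0.0518). Thy1, Pdgfrb and Fn1 were called higher, but these calls were lost in 7, 8 and 13 alternatives, among them leaving out either p53SYM array. Vim and Col1a2 were not called against SYM (−0.23 and −0.01). Between ASYM and p53SYM, 5 of the 8 markers were higher in ASYM (Col1a1, Col3a1, Pdgfra, Fn1 and Vim) and 1, Thy1, lower. All rows gave 15.6% and 15.5% for these counts. With the level of the arrays' hybridization controls as a block, the calls of Col3a1, Fn1, Vim and Thy1 were lost. Of 6 measured adipocyte genes, Fabp4 and Pparg were called higher in p53SYM than in SYM and the other 4 were not. Fabp4, a fatty acid binding protein, was the brightest and read 9.55 and 8.94 in p53SYM, 7.31 to 8.22 in ASYM and 5.15 to 5.92 in SYM. Its groups did not overlap, and the log2 difference of p53SYM from SYM was 3.70 ± 0.29 (SE, adjusted p = 2.9e-05). Pparg, the factor that drives fat cell formation, read 5.82 and 5.29 in p53SYM, 5.26 to 6.14 in ASYM and 4.85 to 4.90 in SYM. Its call between p53SYM and SYM was lost in 9 alternatives (highest adjusted p = 0.32), among them leaving out p53SYM array 1 or any 1 SYM array. The defining adipocyte genes Adipoq, Cidec and Lpl stayed at or below 4.02 on every array. The summed adipocyte value was 31.6 and 30.8 in p53SYM, 28.2 to 30.1 in ASYM and 26.2 to 26.7 in SYM. Of 4 macrophage, 4 epithelial and 3 hepatocyte markers measured, the brightest means were 5.47 (Csf1r), 4.51 (Krt8) and 4.85 (Apoa1). The summed macrophage value was 16.0 to 16.2 in ASYM, 16.4 to 17.1 in SYM and 17.4 and 17.3 in p53SYM. Csf1r, Adgre1 and Aif1 were called lower in ASYM than in p53SYM, the last 2 dim, and Csf1r higher in p53SYM than in SYM, and all 4 calls were lost when either p53SYM array was left out. The summed epithelial and hepatocyte values ran from 15.4 to 17.1 and from 12.8 to 15 over the 8 arrays, and these markers were called in no comparison. The part of these marker differences in the results below was not tested.

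The p53SYM line held less of most of these transcripts than either other line. Against SYM, 18 of 28 members fell and 0 rose, whereas 15.1% of all rows were called lower and 10.2% higher. Against p53SYM, 20 of 28 members were higher in ASYM and 0 lower, beside 15.6% and 15.5% of all rows. At an unadjusted limma p under 0.05, 0 members were higher in p53SYM than in SYM and 1, Stard4, was lower in ASYM than in p53SYM. Without p53SYM array 1 the 20 became 9 and the 18 became 15, with the spread of the single p53SYM array taken from the other lines. With the level of the arrays' hybridization controls as a block, the 20 became 3 and the 18 became 15. ASYM and SYM differed in few members. Srebf1 was the 1 member of 28 called higher in ASYM (10.9% of all rows) and Stard4 the 1 called lower (11.0% of all rows). At an unadjusted p under 0.05, Hmgcs1 and Srebf2 joined Srebf1, and Ebp, Acaca, Fasn and Fads2 joined Stard4. Without ASYM array 2, Srebf2 passed as well (2 higher), and without ASYM array 3, Fads2 did (2 lower). The median member log2 difference was 0.01 for ASYM minus SYM, a value that was −0.02 with the arrays quantile-normalized again, 0.60 for ASYM minus p53SYM and −0.56 for p53SYM minus SYM, beside −0.05, −0.04 and 0.03 over all 15649 named genes. The last 2 comparisons share the p53SYM arrays, so their counts are not independent. In both, 16 members were called, while 4 were called only between ASYM and p53SYM and 2 only between p53SYM and SYM. Srebf1 is among the 4, with high ASYM values and a p53SYM minus SYM of −0.04. Both p53SYM arrays lay below all 6 other arrays for 21 of 28 members, a pattern shown by 16.3% of all rows. Cultures were measured in bulk, so fewer cells with a transcript and less of it per cell cannot be told apart.

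**Figure D1:**
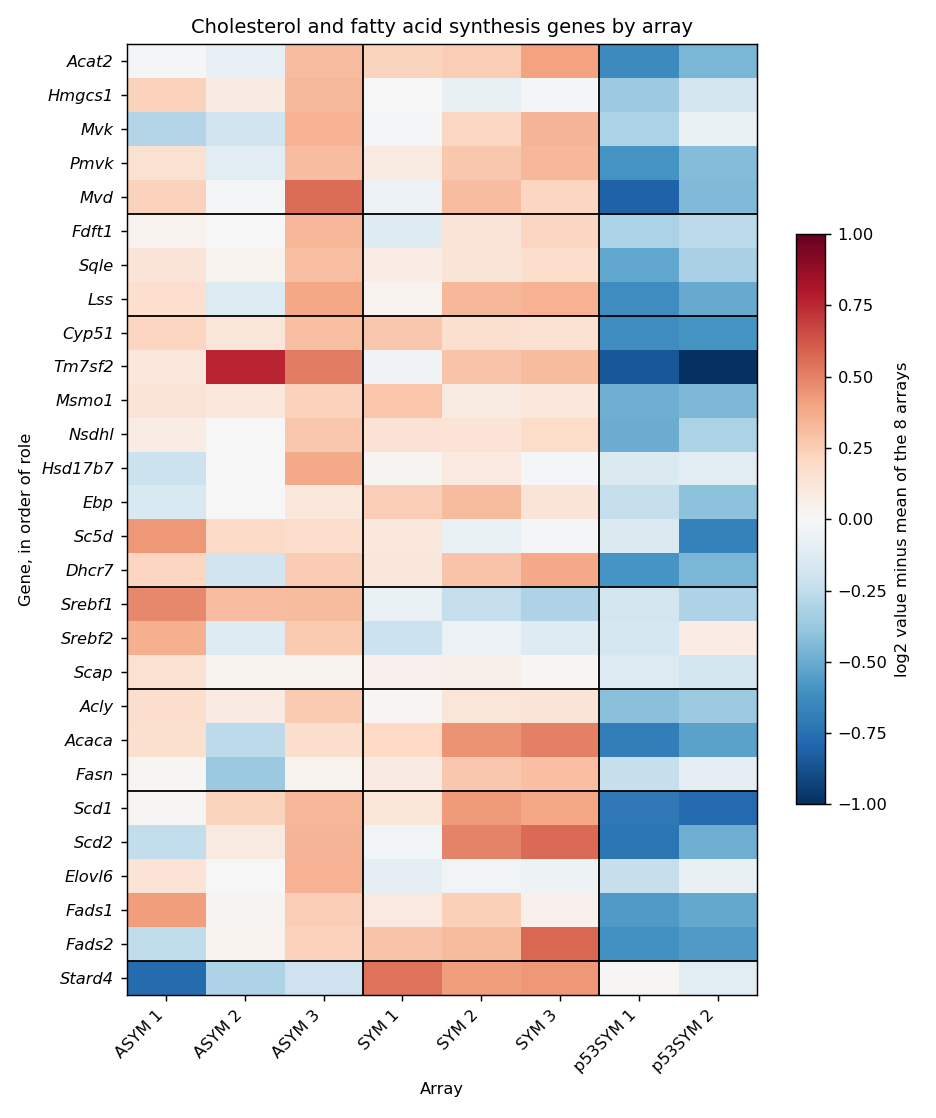
Each of 28 members (rows, in order of role) on each of the 8 arrays (columns), as the log2 value minus the gene's mean over the 8 arrays. The p53SYM columns are blue for most members, with 21 of 28 lower on both than on all 6 other arrays, while Srebf1 is high on the 3 ASYM arrays and Stard4 on the 3 SYM arrays.

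The promoters of the members were searched for the letters these factors are known to bind, in RefSeq windows of mouse build GRCm38.p6 that run from 250 bases before each gene's start to 50 after it. Windows matched 24 of the 31 members (30 windows), and Fdps, Fdft1, Sqle, Scd1, Scd2, Fads1 and Stard4 had none. The NF-Y box CCAAT, on either strand, was in 20 of 30 windows (66.7%), against 37.4% of all 32851 windows. The Sp1 box GGGCGG was in 23 of 30 (76.7%), against 35.7%, and the E-box CACGTG in 6 of 30 (20.0%), against 7.15%. The sterol regulatory element spelled TCACNCCAC was in 1 window, that of Hmgcs1 (3.33%), against 1.24% of all windows, and its overlapping core CACCCCAC was in 2, those of Hmgcs1 and Acat2, against 2.87%. The sequences shown are those 2 windows, because they hold the core, and the windows of the 3 cholesterol enzymes with CCAAT letters whose p53SYM value was lowest relative to SYM (Tm7sf2, Cyp51 and Lss). They lie, for Hmgcs1 at chr13:119690101-119690400 on the plus strand, for Acat2 at chr17:12960676-12960975 on the minus strand, for Tm7sf2 at chr19:6067801-6068100 on the minus strand, for Cyp51 at chr5:4104648-4104947 on the minus strand and for Lss at chr10:76531355-76531654 on the plus strand. Capitals mark the letters of the sterol element or its core, of the NF-Y box and of the Sp1 box, as spelled above or as their reverse complement.
Hmgcs1: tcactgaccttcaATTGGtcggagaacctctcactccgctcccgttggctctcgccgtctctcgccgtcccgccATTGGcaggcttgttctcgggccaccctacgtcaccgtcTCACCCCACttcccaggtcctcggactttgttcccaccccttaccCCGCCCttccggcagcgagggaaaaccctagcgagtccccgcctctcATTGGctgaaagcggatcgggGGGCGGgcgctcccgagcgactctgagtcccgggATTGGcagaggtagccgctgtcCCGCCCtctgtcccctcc
Acat2: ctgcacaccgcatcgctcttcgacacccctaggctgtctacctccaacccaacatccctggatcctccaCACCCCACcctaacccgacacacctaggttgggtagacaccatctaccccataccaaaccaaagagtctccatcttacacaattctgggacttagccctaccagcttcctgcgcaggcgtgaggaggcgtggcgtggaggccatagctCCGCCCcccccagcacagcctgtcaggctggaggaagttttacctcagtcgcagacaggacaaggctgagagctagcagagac
Tm7sf2: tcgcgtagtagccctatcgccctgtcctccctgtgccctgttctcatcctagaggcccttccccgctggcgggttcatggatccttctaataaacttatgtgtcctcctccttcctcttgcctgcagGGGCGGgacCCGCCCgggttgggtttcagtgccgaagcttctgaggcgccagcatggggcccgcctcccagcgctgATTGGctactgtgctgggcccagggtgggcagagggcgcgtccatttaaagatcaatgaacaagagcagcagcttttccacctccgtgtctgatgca
Cyp51: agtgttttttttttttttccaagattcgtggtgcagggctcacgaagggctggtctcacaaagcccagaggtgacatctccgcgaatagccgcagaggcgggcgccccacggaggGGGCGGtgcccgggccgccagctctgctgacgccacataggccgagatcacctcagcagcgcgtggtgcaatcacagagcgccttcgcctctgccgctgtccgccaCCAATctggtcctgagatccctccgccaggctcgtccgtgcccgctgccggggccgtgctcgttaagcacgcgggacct
Lss: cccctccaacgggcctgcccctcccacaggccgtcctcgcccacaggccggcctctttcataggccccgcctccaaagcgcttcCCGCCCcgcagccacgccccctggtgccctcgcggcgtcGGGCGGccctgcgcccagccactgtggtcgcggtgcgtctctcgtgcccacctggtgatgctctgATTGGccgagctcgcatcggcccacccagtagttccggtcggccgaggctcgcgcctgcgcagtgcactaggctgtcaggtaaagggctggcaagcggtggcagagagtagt
The Hmgcs1 window holds the sterol element 137 bases before the start, with CCAAT letters in 4 places and GGGCGG letters in 3. In Tm7sf2, Cyp51 and Lss a CCAAT box lies 47, 29 and 62 bases before the start, and GGGCGG letters lie upstream of it in each. These are matches of letters, and binding was not measured here.

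Of the enzymes that lead from acetyl-CoA to farnesyl diphosphate, 5 of 7 had values. In p53SYM, 3 of these 5 fell relative to SYM and 4 lay below ASYM at the threshold, beside 15.1% and 15.6% of all rows. The median log2 differences were −0.74 and, as ASYM minus p53SYM, 0.61. The 4 became 0 without p53SYM array 1 and also with the level of the arrays' hybridization controls as a block. Acat2, the thiolase that joins acetyl-CoA units, read 11.52, 11.45 and 11.84 in ASYM, 11.76, 11.78 and 11.94 in SYM, and 10.90 and 11.08 in p53SYM. The p53SYM arrays lay below all others, and ASYM and SYM overlapped. The Acat2 difference of p53SYM from SYM was −0.84 ± 0.13 (SE, adjusted p = 0.0013), a 1.79-fold lower value. Pmvk and Mvd, the kinase and decarboxylase at the end of the mevalonate steps, fell by 0.74 and 0.78 on the log2 scale from SYM to p53SYM. Mvd read 8.78, 8.54 and 9.11 in ASYM, 8.49, 8.86 and 8.76 in SYM, and 7.74 and 8.11 in p53SYM. The Mvd call against SYM was lost without p53SYM array 1 or with the control level as a block (highest adjusted p = 0.0937). Its p53SYM arrays were also its lowest, although they differed by more between themselves than those of Acat2. Hmgcs1, the synthase that makes HMG-CoA and the gene with the sterol element above, was graded across the lines. It read 11.46, 11.31 and 11.55 in ASYM, 11.23, 11.15 and 11.21 in SYM, and 10.86 and 11.04 in p53SYM. No group of Hmgcs1 overlapped another, but only ASYM against p53SYM passed the threshold (log2 difference 0.49 ± 0.11, SE, adjusted p = 0.0077). Mvk, the mevalonate kinase, passed in no comparison and read from 8.46 to 9.13 over the 8 arrays, with ASYM overlapping both other lines.

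All 3 enzymes of the squalene steps had p53SYM arrays below the 6 others. Sqle, which oxidizes squalene, read 11.67, 11.58 and 11.84 in ASYM, 11.62, 11.67 and 11.72 in SYM, and 11.02 and 11.22 in p53SYM. ASYM and SYM overlapped for Sqle while both p53SYM arrays were lower. Lss, the cyclase that forms lanosterol, read 9.37, 9.07 and 9.59 in ASYM, 9.24, 9.54 and 9.55 in SYM, and 8.58 and 8.70 in p53SYM. The fall of Lss from SYM to p53SYM was 1.74-fold (adjusted p = 0.004), and that of Sqle 1.46-fold (adjusted p = 0.0051). Fdft1, which makes squalene, was higher in ASYM than in p53SYM by 0.41 ± 0.13 (SE, adjusted p = 0.042), and its difference of p53SYM from SYM, −0.36, missed the threshold (adjusted p = 0.078). The Fdft1 call was lost in 7 alternatives (highest adjusted p = 0.199), among them leaving out either p53SYM array. Of the 3 enzymes, Sqle was the 1 called between ASYM and p53SYM without p53SYM array 1, and 0 were with the control level as a block. Sqle lost its call against SYM without p53SYM array 1, which left Lss.

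The 8 enzymes from lanosterol to cholesterol were all measured. From SYM to p53SYM 6 fell, and 6 were higher in ASYM than in p53SYM, beside 15.1% and 15.6% of all rows. The 6 against ASYM became 2 (Cyp51 and Tm7sf2) with the control level as a block and 4 without p53SYM array 1 (Nsdhl and Dhcr7 lost), and the 6 against SYM ranged from 5 to 7 over all alternatives. Cyp51, the demethylase of lanosterol, read 10.36, 10.27 and 10.45 in ASYM, 10.42, 10.31 and 10.30 in SYM, and 9.53 and 9.55 in p53SYM. The 2 p53SYM arrays agreed closely and lay far below the other 6, which overlapped. Cyp51 was 1.75-fold lower in p53SYM than in SYM (log2 difference −0.80 ± 0.10, SE, adjusted p = 0.00032). Tm7sf2, a sterol C14 reductase, read 7.85, 8.51 and 8.26 in ASYM, 7.71, 8.03 and 8.06 in SYM, and 6.90 and 6.65 in p53SYM. Its p53SYM arrays were apart from a wide spread on the others. This was the largest difference among the 28 members, at 1.44 ± 0.18 (SE, adjusted p = 0.00053) for ASYM minus p53SYM and −1.16 ± 0.18 (SE, adjusted p = 0.0014) for p53SYM minus SYM. Msmo1 and Nsdhl, which act together to remove the C4 methyl groups, fell by 0.63 and 0.56 from SYM to p53SYM, with ASYM means (12.09 and 10.86) close to those of SYM (12.09 and 10.90). Dhcr7, the last reductase, read 7.55 and 7.68 in p53SYM and from 7.94 to 8.52 on the other arrays. Ebp, the isomerase, was called lower against SYM (adjusted p = 0.0053) and just missed the threshold against ASYM (0.061), while Sc5d, the desaturase, was called against ASYM (0.0084) and just missed it against SYM (0.066). Both calls were lost without p53SYM array 2, the Sc5d difference from SYM passed without p53SYM array 1, and the Ebp difference from ASYM passed without ASYM array 1. For both genes the p53SYM arrays lay below the 6 others, with Ebp at 9.26 and 9.09 and Sc5d at 9.84 and 9.31. Hsd17b7 had the smallest p53SYM differences of these steps, and its ASYM arrays (7.32, 7.53 and 7.91) enclosed all other values.

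**Figure D2:**
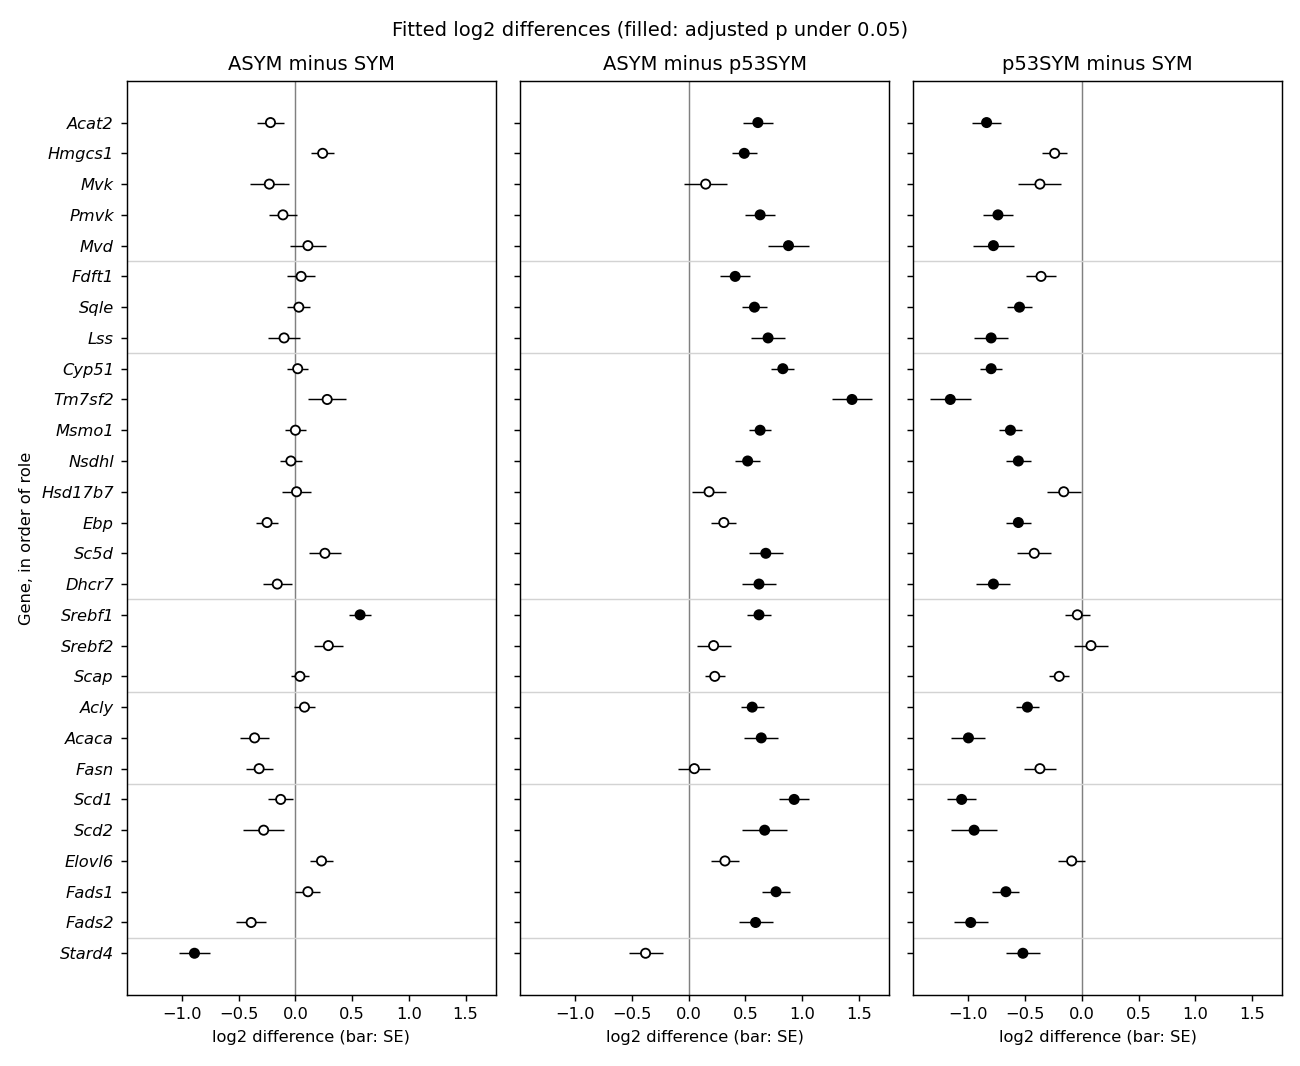
Fitted log2 difference of each member (rows, in order of role) in the 3 comparisons (panels), with bars of 1 SE and filled points for an adjusted p under 0.05. The left panel has 2 filled points, Srebf1 and Stard4, the middle panel 20 on the right of 0, and the right panel 18 on the left of 0.

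The SREBP genes themselves did not share the low p53SYM values. Srebf1, which encodes the factors that mainly drive fatty acid genes, read 9.17, 9.0 and 9.01 in ASYM, 8.62, 8.45 and 8.38 in SYM, and 8.51 and 8.38 in p53SYM. ASYM lay above both other lines with no overlap, and SYM and p53SYM overlapped. Srebf1 was 1.49-fold higher in ASYM than in SYM (log2 difference 0.57 ± 0.10, SE, adjusted p = 0.0024) and 1.53-fold higher than in p53SYM (adjusted p = 0.0028). The call against p53SYM was lost with the hybridization-control level as a block (adjusted p = 0.195). Srebf2, whose product mainly drives cholesterol genes, read 10.24, 9.76 and 10.15 in ASYM, 9.67, 9.83 and 9.76 in SYM, and 9.71 and 9.96 in p53SYM. The 3 groups overlapped and no comparison passed, with a log2 difference of 0.08 ± 0.15 (SE, adjusted p = 0.73) between p53SYM and SYM. Scap read 9.90, 9.78 and 9.78 in ASYM, 9.79, 9.80 and 9.76 in SYM, and 9.61 and 9.56 in p53SYM. Both p53SYM arrays of Scap were the lowest, by a margin that missed the threshold against SYM (−0.20 ± 0.09, SE, adjusted p = 0.15) and against ASYM (adjusted p = 0.078). The cleaved proteins on which SREBP activity depends were not measured by these arrays.

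Of 8 fatty acid synthesis and desaturation genes, 6 were lower in p53SYM than in SYM and 6 lower than in ASYM, beside 15.1% and 15.6% of all rows. Without p53SYM array 1, Acly, Scd1 and Fads1 were those called against ASYM, and with the control level as a block Scd1 alone was. Acly, which makes cytosolic acetyl-CoA from citrate, read 10.10 and 10.16 in p53SYM and from 10.54 to 10.78 on the other arrays. Acaca, the carboxylase that commits acetyl-CoA to fatty acids, read 9.53, 9.11 and 9.55 in ASYM, 9.57, 9.82 and 9.88 in SYM, and 8.68 and 8.84 in p53SYM. Its groups did not overlap, and SYM was highest. Acaca fell 2.0-fold from SYM to p53SYM (log2 difference −1.0 ± 0.15, SE, adjusted p = 0.00099), while its difference between ASYM and SYM, −0.36, missed the threshold (adjusted p = 0.084). Fasn, the synthase that builds palmitate, passed in no comparison. It read 11.02, 10.64 and 11.05 in ASYM, 11.09, 11.28 and 11.31 in SYM, and 10.78 and 10.92 in p53SYM. The Fasn arrays of SYM were the highest, and those of ASYM and p53SYM overlapped.

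Scd1, the stearoyl-CoA desaturase, read 9.89, 10.10 and 10.21 in ASYM, 10.00, 10.31 and 10.27 in SYM, and 9.17 and 9.10 in p53SYM. ASYM and SYM overlapped and p53SYM was apart from both. Scd1 was 2.08-fold lower in p53SYM than in SYM (log2 difference −1.06 ± 0.13, SE, adjusted p = 0.00032) and 1.91-fold lower than in ASYM (adjusted p = 0.00074). Its paralog Scd2 read 11.30, 11.64 and 11.89 in ASYM, 11.52, 12.04 and 12.11 in SYM, and 10.82 and 11.06 in p53SYM. The p53SYM arrays were again the lowest, beside a wider spread within ASYM and SYM. The delta-5 and delta-6 desaturases Fads1 and Fads2, which work on polyunsaturated fatty acids, fell by 0.67 and 0.98 from SYM to p53SYM. Fads2 read 9.67, 9.96 and 10.16 in ASYM, 10.21, 10.24 and 10.50 in SYM, and 9.32 and 9.36 in p53SYM, so that its groups did not overlap. Elovl6, which extends palmitate, was not called in any comparison and read from 9.31 to 9.89 over the 8 arrays.

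Stard4, a small protein that moves cholesterol between membranes, followed another order. It read 8.13, 8.59 and 8.69 in ASYM, 9.44, 9.32 and 9.33 in SYM, and 8.91 and 8.79 in p53SYM. SYM was the highest, p53SYM lay between, and no groups overlapped. Stard4 was 1.85-fold lower in ASYM than in SYM (log2 difference −0.89 ± 0.14, SE, adjusted p = 0.0013). Its call between p53SYM and SYM (−0.52 ± 0.15, SE, adjusted p = 0.031) was lost when any 1 of the SYM or p53SYM arrays was left out, and in 9 alternatives in all (highest adjusted p = 0.177).

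Some array properties moved with the p53SYM line. The 18 hybridization-control rows had means of 9.88 to 10.00 on the ASYM arrays and SYM arrays 1 and 2, and of 10.24 and 10.46 on the p53SYM arrays. SYM array 3 shared the high level (10.44), and it also had 18S rRNA control rows at 10.63, against 5.58 to 6.46 on the other arrays. The member median stood 0.20 above the 8-array mean on that SYM array and 0.49 and 0.42 below it on the p53SYM arrays. Within the high level, p53SYM against SYM array 3 gave a median of −0.58 with 15 of 28 members called lower, where the spread of the single SYM array is taken from the other arrays. With the control level as a block, ASYM against p53SYM kept its median (0.64) but only Cyp51, Tm7sf2 and Scd1 were called. That comparison has no array pair within 1 level, so its block correction came only from SYM array 3 set against SYM arrays 1 and 2. For p53SYM against SYM, the block likewise rests on SYM array 3 and gave the same median as the fit within the high level. Genes as bright as the members were slightly low on the p53SYM arrays in general. Among the 5617 named genes within the members' range of mean value (7.53 to 11.93), the median p53SYM minus SYM was −0.14, with 29.3% called lower and 11.7% higher, and the median ASYM minus p53SYM was 0.14, with 28.1% called higher and 10.1% lower. In the members 64.3% were called lower than SYM and 71.4% higher in ASYM. The 3' to 5' difference of the Actb control rows, a measure of RNA integrity, was 0.06 and 0.07 on the p53SYM arrays, the lowest, and 0.11 to 0.19 on the others. That of Gapdh was −0.205 and −0.206 in p53SYM, within the −0.215 to −0.109 of the others. The part of these array properties in the low member values was not tested beyond the values given.

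**Figure D3:**
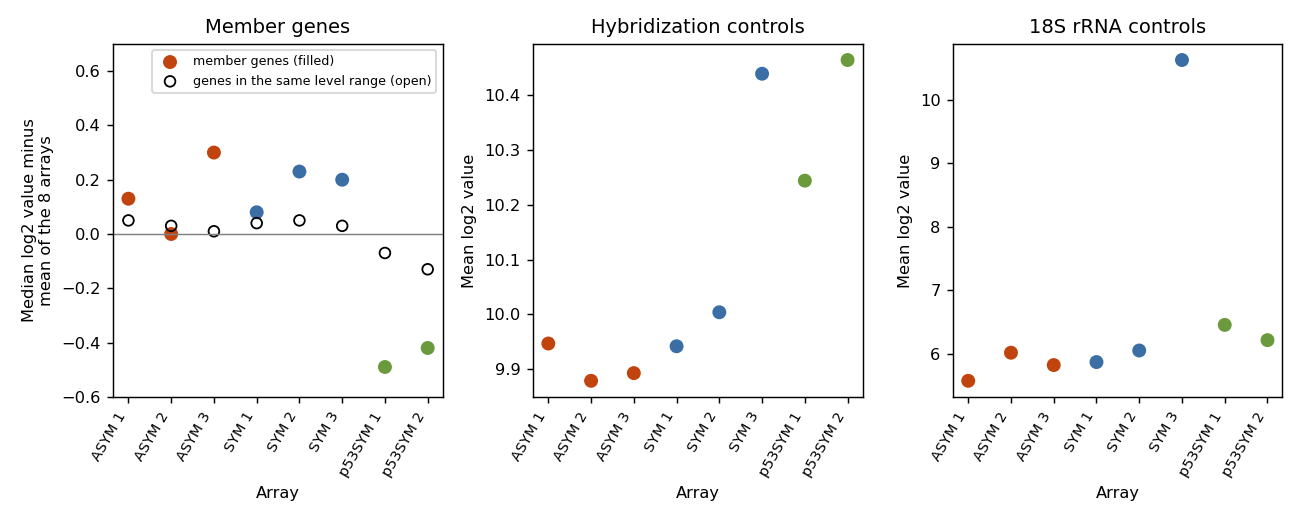
Left, the median over members (filled) and over named genes in the same range of level (open) of the log2 value minus the gene's 8-array mean, by array; middle and right, the mean log2 value of hybridization-control and 18S rRNA control rows. The member median is −0.49 and −0.42 on the 2 p53SYM arrays and 0.20 on SYM array 3. Hybridization controls are high on all of these arrays, and 18S rRNA controls on SYM array 3 alone. The part of the control level in the member values was not tested beyond the values given.

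Expression differences between these clones also varied by chromosome. The median p53SYM minus SYM over named genes above the 25th percentile of level was −0.36 on chromosome 10, −0.18 on chromosome 8, 0.20 on chromosome 3 and 0.21 on chromosome 18, the 2 lowest and 2 highest of 20 chromosomes. Members lie on 15 chromosomes, and 26 of 28 were below the median of their own chromosome. These medians include genes dimmer than the members. Of 5617 named genes in the members' range of mean value, 3582 had a p53SYM minus SYM below 0, beside 27 of 28 members. Lss is the member on chromosome 10 (log2 difference −0.80), and Mvd and Msmo1 are those on chromosome 8 (−0.78 and −0.63). Pmvk and Elovl6, on chromosome 3, had −0.74 and −0.09 beside their chromosome's 0.20. Stard4, on chromosome 18, had −0.52 beside its chromosome's 0.21. Chromosome 19 holds 5 members, Tm7sf2, Scd1, Scd2, Fads1 and Fads2, whose differences ran from −1.16 to −0.67 beside a chromosome median of −0.12. With the chromosome median subtracted from each member, the median member difference was −0.46 for p53SYM minus SYM and 0.48 for ASYM minus p53SYM. The copy number of chromosomes was not measured.

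**Figure D4:**
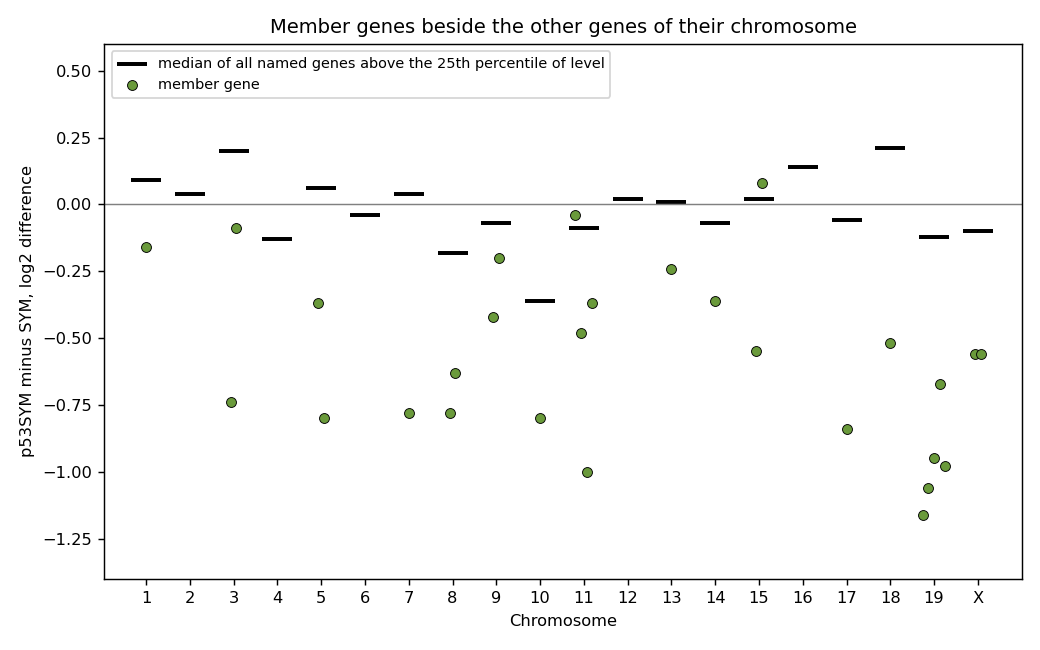
Log2 difference of p53SYM from SYM for each member (points) by chromosome, beside the median of all named genes above the 25th percentile of level on that chromosome (bars). Of 28 points, 26 lie below their bar, and the bars run from −0.36 (chromosome 10) to 0.21 (chromosome 18).

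Other genes of SREBP processing had calls in both directions. Of 10 measured, 3 were higher and 1 lower in ASYM than in p53SYM (15.6% and 15.5% of all rows). Both counts became 0 with the control level as a block. In p53SYM 4 were lower and 1 higher than in SYM (15.1% and 10.2% of all rows), with a median log2 difference of −0.11. The 4 became 2, Mbtps2 and Erlin1, without p53SYM array 2 or with the control level as a block, and the 1, Insig2, became 0 without p53SYM array 1, without SYM array 3 or with that block. Mbtps2, the site-2 protease that frees SREBP from the membrane, read 8.40, 8.47 and 8.27 in ASYM, 9.06, 8.82 and 8.71 in SYM, and 7.41 and 6.90 in p53SYM. Its 3 groups did not overlap, with p53SYM lowest and SYM highest. Mbtps2 was 3.26-fold lower in p53SYM than in SYM (log2 difference −1.71 ± 0.16, SE, adjusted p = 6.8e-05) and 2.33-fold lower than in ASYM (adjusted p = 0.00052, or 0.0744 with the control level as a block). The site-1 protease gene Mbtps1 was called in no comparison and read 8.77 and 8.69 in p53SYM, above every other array of that gene. The others called between p53SYM and SYM were chosen for naming after their values were seen. Erlin1, Erlin2 and Nfyb fell by 0.66, 0.36 and 0.51 on the log2 scale from SYM to p53SYM, and Insig2, which holds Scap back, was higher by 0.58. Erlin1 was equally low in ASYM, at 9.33 to 9.61 against 10.05 to 10.18 in SYM.

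**Figure D5:**
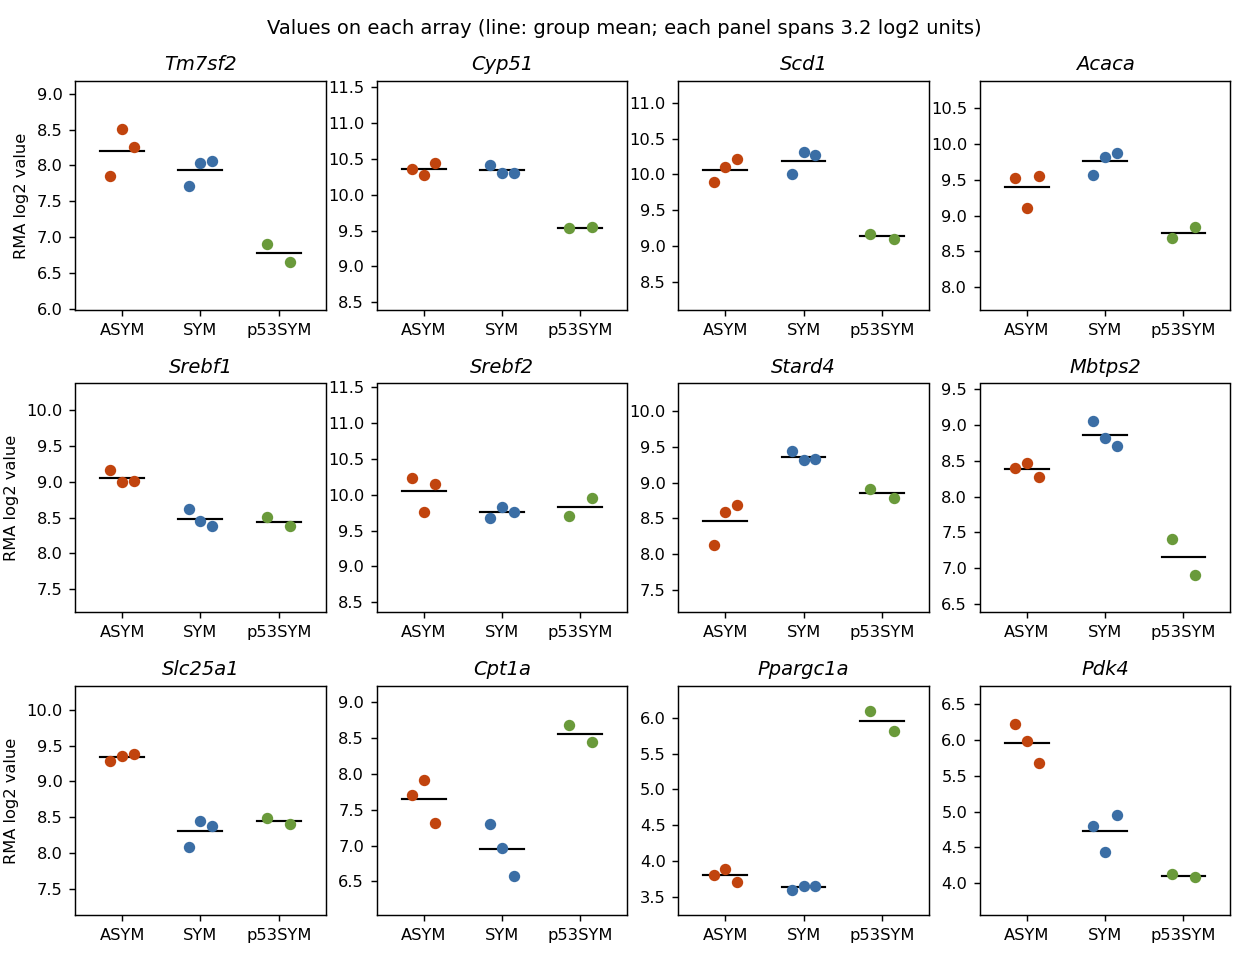
RMA log2 values on each array (points) with the group mean (line) for 7 members and 5 genes of related lists, with every panel spanning the same log2 range. Tm7sf2, Cyp51, Scd1, Acaca and Mbtps2 are lowest on the 2 p53SYM arrays, Cpt1a and Ppargc1a are highest there, and Srebf1 and Slc25a1 are highest on the 3 ASYM arrays.

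Of 15 measured sterol uptake, efflux and storage genes, 2 were higher (Npc1 and Npc2) and 2 lower (Scarb1 and Osbp) in p53SYM than in SYM, 13.3% each way and near the 10.2% and 15.1% of all rows. Npc2 and Osbp lost their calls without p53SYM array 1. Npc1, which exports cholesterol from lysosomes, read 7.13 and 6.91 in p53SYM, 5.88 to 6.32 in ASYM and 5.80 to 5.98 in SYM. The p53SYM arrays lay above all others, opposite to the synthesis enzymes, by 1.15 ± 0.14 against SYM (SE, adjusted p = 0.0003). The isoprenoid branch, which draws on the same farnesyl diphosphate, had 5 of 11 genes lower in p53SYM than in SYM (Ggps1, Pdss1, Dhdds, Nus1 and Fnta) and 0 higher, beside 15.1% and 10.2% of all rows. At an unadjusted limma p under 0.05 these counts were 7 and 0. The 5 became 1 (Dhdds) without p53SYM array 2, 3 without p53SYM array 1, and 2 (Dhdds and Fnta) with the control level as a block. In ASYM, 4 of 11 were lower than in SYM (Dhdds, Nus1, Fntb and Rce1) and 0 higher, beside 11.0% and 10.9% of all rows. The counts were 6 and 0 at an unadjusted limma p under 0.05. Dhdds and Nus1 were also called lower in p53SYM than in SYM, whereas Fntb and Rce1 were not (log2 differences −0.42 and −0.01). The 4 became 1 (Rce1) without ASYM array 2, SYM array 2 or SYM array 3, and 3 without any 1 of the other arrays. The median log2 difference was −0.29 for ASYM minus SYM, −0.38 for p53SYM minus SYM and 0.05 for ASYM minus p53SYM. All names in these lists other than Npc1 were chosen after their values were seen.

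Fatty acid supply, elongation and activation genes (22 measured) had 7 lower (31.8%) and 1 higher (Mid1ip1) in p53SYM than in SYM, beside 15.1% and 10.2% of all rows. Among named genes in the members' range of mean value, which not all of the 22 share, 29.3% were lower and 11.7% higher. The 7 became 2 (Elovl1 and Elovl5) without p53SYM array 2 or with the control level as a block, and 4 without SYM array 2. The Mid1ip1 call was lost in 12 alternatives, among them leaving out any 1 array. Between ASYM and SYM 4 were higher (Acss2, Slc25a1, G6pdx and Hsd17b12) and 3 lower (Elovl1, Elovl5 and Acsl1), beside 10.9% and 11.0% of all rows, and all but Slc25a1 were chosen for naming after their values were seen. Slc25a1, the mitochondrial carrier that exports citrate for this synthesis, read 9.29, 9.35 and 9.38 in ASYM, 8.09, 8.45 and 8.38 in SYM, and 8.49 and 8.40 in p53SYM. ASYM was apart from both other lines, which overlapped, as for Srebf1. Slc25a1 was 2.05-fold higher in ASYM than in SYM (log2 difference 1.04 ± 0.11, SE, adjusted p = 0.00014).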

How the data were processed

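RNA of 8 cultures was hybridized to 1 Affymetrix mouse array each. The authors made the deposited log2 values by RMA, with probes regrouped by RefSeq transcript, and no further normalization was applied. Precision is limited by how few arrays there are. Of 22523 rows without controls, 18290 (81.2%) were named through RefSeq tables of GRCm38.p6, and the brightest row stood for a gene. The 3 group means over all 8 arrays were estimated with limma (version 3.58.1, R 4.3.3), with Benjamini-Hochberg adjustment, tested on simulated data. The study's rank product test was not run. Summaries used Python 3.11.15 with pandas 2.3.3, and figures matplotlib 3.10.9. Members and lists were chosen with earlier results of these data known. By rule, all members are named, with every array value for those called with an absolute log2 difference of at least 1 and for the SREBP genes. Genes of other lists are named at that size, and label checks always. Other array values and names were chosen after they were seen. Further genes of the pathway are not analysed here.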

Additional observations from a re-analysis of the deposited data

Results flagged for a closer look

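Control rows, which no comparison above tests, set some arrays apart. The 18S rRNA control rows of SYM replicate 3 had a mean of 10.627, far above all other arrays, and its hybridization-control rows had a mean of 10.439. The hybridization-control rows of p53SYM replicates 1 and 2 had means of 10.244 and 10.464, above those of the ASYM arrays. The part of these levels in the member differences was not tested beyond the values within 1 control level and with that level as a block. No single array was tested as an outlier.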

How the results depend on the processing

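The 3 comparisons were fitted under 19 alternatives, and of 40 called member results, 18 were called under all of them and 0 changed direction. Requiring an absolute log2 difference of at least 1 left 0 members higher and 0 lower in ASYM than in SYM, 1 higher in ASYM than in p53SYM (Tm7sf2), and 3 lower in p53SYM than in SYM (Tm7sf2, Acaca and Scd1). Quantile-normalizing again gave medians of 0.453 for ASYM minus p53SYM and −0.440 for p53SYM minus SYM, with 1 member (Stard4) lower in ASYM than in p53SYM. Subtracting the chromosome median gave 0.483 for ASYM minus p53SYM, and subtracting the median of the 500 genes nearest in level gave 0.461 and, for p53SYM minus SYM, −0.423; both alternatives were chosen after seeing the data. The hybridization-control level as a block left 3 members higher in ASYM than in p53SYM, a comparison that could not be fitted within 1 level. For ASYM minus SYM (−0.019) and p53SYM minus SYM (−0.582), the block and the fit within 1 level gave the same medians. They are not separate checks there. A prior with a trend called 2 members lower in ASYM than in SYM. So did the replicate number as a block, with 20 members higher in ASYM than in p53SYM (median 0.530) and 18 lower in p53SYM than in SYM (median −0.534). ASYM and SYM arrays of the same number had correlations of 0.27, 0.029 and 0.381, and those of different numbers −0.408 to 0.117. For pairs with a p53SYM array, the same number gave −0.225 to 0.205 and different numbers −0.237 to 0.237. Leaving out 1 array gave 1 to 2 members higher and 1 to 2 lower in ASYM than in SYM, and 9 to 20 higher and 0 to 1 lower in ASYM than in p53SYM. The cause of these shifts was not tested, and dim rows limit what can be detected.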

Other observations

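Of 13 measured fatty acid oxidation genes, 6 were higher and 0 lower in ASYM than in SYM (0 lower also at an unadjusted limma p under 0.05), and 4 were higher (Cpt1a, Acadm, Acadl and Ppargc1a) and 2 lower (Cpt2 and Pdk4) in p53SYM than in SYM. All rows gave 10.9%, 11.0%, 10.2% and 15.1% for these 4 counts in turn. The 6 became 2 (Acadl and Pdk4) without ASYM array 2 or SYM array 2, and 3 (Acadl, Acadvl and Pdk4) without ASYM array 1, without SYM array 3 or with the hybridization-control level as a block. Pdk4 lost its call between p53SYM and SYM without either p53SYM array, SYM array 1 or SYM array 3. Acadm, Acadl, Acadvl and Cpt2 were chosen for naming after their values were seen. Cpt1a, which admits fatty acids to mitochondria, read 7.71, 7.92 and 7.31 in ASYM, 7.30, 6.96 and 6.58 in SYM, and 8.68 and 8.44 in p53SYM. The p53SYM arrays were the highest and ASYM lay just above SYM. The Cpt1a difference of p53SYM from SYM was 3.05-fold (log2 difference 1.61 ± 0.22, SE, adjusted p = 0.00055). Ppargc1a, a coactivator of oxidative metabolism, read 6.09 and 5.82 in p53SYM and from 3.60 to 3.89 on the other arrays. It was higher in p53SYM than in SYM (adjusted p = 9.3e-07), and no fold is given because ASYM and SYM lay below the 25th percentile of all rows (4.30). Pdk4, the kinase that turns off pyruvate dehydrogenase, ran the other way, at 6.22, 5.99 and 5.68 in ASYM, 4.80, 4.44 and 4.95 in SYM, and 4.12 and 4.09 in p53SYM. ASYM was highest and p53SYM lowest with no overlap, and Pdk4 was 2.35-fold higher in ASYM than in SYM (adjusted p = 0.00052).

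Of 7 measured glycerolipid synthesis genes, 1 was higher (Lpin1) and 2 lower (Gpam and Pcyt1a, chosen for naming after their values were seen) in ASYM than in SYM, beside 10.9% and 11.0% of all rows. Lpin1, a phosphatidate phosphatase, read 6.75 to 6.89 in ASYM, 6.32 and 6.30 in p53SYM and 5.69 to 5.86 in SYM, and its groups did not overlap (log2 difference 1.02 ± 0.09 for ASYM minus SYM, SE, adjusted p = 5.6e-05). All 8 measured proliferation genes were lower in ASYM than in SYM, beside 11.0% of all rows, with a median log2 difference of −0.60. The 8 became 6 (Mcm2 and Plk1 lost) without SYM array 3 or with the hybridization-control level as a block, and 7 without ASYM array 2, SYM array 1 or SYM array 2 (Mcm2 lost). Birc5, an inhibitor of apoptosis that acts in mitosis, had −1.06 ± 0.10 (SE, adjusted p = 0.00011). Against p53SYM, 4 of 8 were lower in ASYM, with a median of −0.37, beside 15.5% of all rows. These 4 became 0 with the hybridization-control level as a block. In p53SYM 3 of 8 were lower than in SYM (Cdk1, Mcm5 and Birc5, the first 2 chosen for naming after their values were seen), with a median of −0.33, beside 15.1% of all rows. The Birc5 call there was lost in 8 alternatives (highest adjusted p = 0.21), among them leaving out any 1 SYM or p53SYM array, and the 3 became 5 without ASYM array 2 (Top2a and Mcm2 added).

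Genes at Mbtps2 on the X chromosome were picked after its values were seen. In RefSeq (GRCm38.p6) Yy2 lies within the span of Mbtps2, so the pair is not separate neighbouring loci. Among genes with a row outside that span, Sms is the nearest on one side and Cnksr2 on the other. Yy2 read 7.10 and 6.97 in p53SYM, 7.61 to 7.76 in ASYM and 7.94 to 8.65 in SYM. Sms read 5.49 and 5.62 in p53SYM, 5.85 to 5.93 in ASYM and 6.30 to 6.83 in SYM. Both genes had the order of lines seen for Mbtps2, without overlap. The differences of p53SYM from SYM were −1.27 for Yy2 (adjusted p = 0.00058) and −0.99 for Sms (adjusted p = 0.00073). Phex, the next gene beyond Sms, was dim, at 3.94 and 3.83 in p53SYM and 4.28 to 4.75 in SYM, and its call between them was lost when either p53SYM array was left out. Cnksr2, also dim, read from 3.38 to 3.58 on all arrays and was not called. The part of this stretch in the Mbtps2 values was not tested.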
